A study of Mus musculus with 16 samples.

Results

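miR-183, miR-96 and miR-182 are 3 microRNAs that are encoded next to each other in the mouse genome, and their signals were followed in sciatic nerves of mice bred to lose Dicer in Schwann cells. The members were chosen by name, as all probes that the array assigns to mmu-miR-183, mmu-miR-96 or mmu-miR-182. This gave 6 of the 1857 probes on the array, 2 for each of 3 of its 650 miRNA names. The nerves came from mutants that carried the Dicer1 fl/fl genotype with Dhh-Cre (Dicer fl/fl Dhh-Cre+, labelled fl) and from controls with the Dicer1 wt/fl genotype and the same Dhh-Cre (Dicer wt/fl Dhh-Cre+, labelled wt), at embryonic day 17 (E17) or postnatal day 4 (p4). Each of the 4 groups held 4 nerve samples, 1 per mouse, and each sample had its own Agilent mouse miRNA array, 16 arrays in all. All mice carried the floxed allele of strain Dicer1tm1Bdh/J and the Cre transgene, so that the controls were heterozygous for the floxed Dicer gene. Cre was driven by the desert hedgehog promoter, which is active in Schwann cells from the precursor stage on, while the axons, fibroblasts, endothelial cells and blood cells of the nerve kept their floxed alleles intact as far as this promoter is silent in them. The arrays hold no probe for Dicer mRNA, and the genotypes were taken from the labels.

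miR-183, miR-96 and miR-182 are made from a shared primary transcript. Drosha cuts the transcript into hairpins and Dicer cuts each hairpin into the mature miRNA, which then represses mRNAs that match its seed, the bases at its 5′ end. The cluster is best known from sensory cells, among them photoreceptors, hair cells of the inner ear and neurons of the dorsal root ganglia, whose axons run through the sciatic nerve. FOXO transcription factors are among the known targets of miR-96 and miR-182.

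The mature sequences are shown because they decide how far the members can be told apart, both by a target mRNA and by an array probe. All 3 were matched in RefSeq (GRCm38.p6), with the array's names, which give no arm, read as the 5p products. They lie on the minus strand of chromosome 6, inside the long non-coding RNA gene Mirc35hg, with miR-183 at chr6:30169711-30169732, miR-96 at chr6:30169506-30169528 and miR-182 at chr6:30165962-30165986. The hairpins of miR-183 and miR-96 are 116 bases apart, and 3453 bases lie between those of miR-96 and miR-182. Capitals mark the seed, bases 2 to 8 from the 5′ end.
mmu-miR-183-5p: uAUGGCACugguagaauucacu
mmu-miR-96-5p: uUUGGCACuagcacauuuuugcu
mmu-miR-182-5p: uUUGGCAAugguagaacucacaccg
Counted from the 5′ end, the seed of miR-183 differs from that of miR-96 by A2U alone, the seed of miR-96 differs from that of miR-182 by C8A alone, and the seeds of miR-183 and miR-182 differ by both A2U and C8A. Over the whole length, miR-183 and miR-182 were identical at 18 of 22 aligned bases, miR-183 and miR-96 at 13 of 22, and miR-96 and miR-182 at 12 of 23. No other of the 1679 mature mouse miRNAs in the RefSeq table shares the seed of miR-183 or of miR-182, and miR-1271-5p, which is not on the array, shares that of miR-96. The sequences of the array probes were not used here, and whether a probe for 1 member also bound another was not tested.

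The scanner software detected all 3 members on 16 of 16 arrays. Of their 6 probes, 4 were well above background on every array, and the dimmer probe of miR-96 was well above background on all arrays but 1 of the 4 p4 control arrays. No array showed the dimmer probe of miR-182 well above background, so that the values of miR-182 rest on its brighter probe. No spot of a member was saturated. The passenger strand mmu-miR-183*, which comes from the other arm of the miR-183 hairpin and has 4 probes of its own, was detected on 0 of 16 arrays, with a background-subtracted signal between -5.47 and 1.85.

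Over the whole experiment, 281 miRNAs with 681 probes were tested together, each detected on 2 or more of the 4 arrays of some group. Summed over all miRNAs, the background-subtracted signal was 36495 to 60374 in E17 controls, 39097 to 50827 in E17 mutants, 122860 to 154076 in p4 controls and 56841 to 83630 in p4 mutants. Precision is limited by the number of arrays. All E17 arrays shared 1 slide and all p4 arrays another, with both genotypes on each, and so the ages cannot be told apart from the slides. RNA was taken from whole nerve, in which fewer cells of a type and less RNA per cell cannot be told apart.

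Values are log2 signals, quantile normalized over the 16 arrays, of the brightest probe of each miRNA, and levels are not compared between miRNAs. Groups were compared by limma with Benjamini-Hochberg adjustment over the 681 probes. A miRNA was called different where 1 of its probes differed by 0.5 or more on the log2 scale with an adjusted p no higher than 0.05, unless the other probe was called in the opposite direction.

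The main question was whether loss of Dicer in Schwann cells lowers the members at p4, when control nerves have begun to myelinate. All 3 members were higher, not lower, in mutant than in control nerves at p4, by 1.94-fold for miR-183, 1.77-fold for miR-96 and 1.51-fold for miR-182. All 3 were called. Of all 281 expressed miRNAs, 10.3% were called higher in this comparison, and their median log2 difference was 0.06.

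For miR-183, the 4 p4 control arrays gave log2 signals of 7.25, 7.08, 7.12 and 7.36, and the 4 p4 mutant arrays gave 8.24, 8.32, 7.83 and 8.23. Every mutant array lay above every control array, and the third mutant array was the lowest of its group. The log2 difference was 0.95 (standard error, SE, 0.158, limma adjusted p = 0.000213), with a 95% interval from 0.61 to 1.29.

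For miR-96, the p4 controls gave log2 signals of 6.74, 6.60, 6.62 and 6.93, and the p4 mutants gave 7.60, 7.64, 7.34 and 7.62. The groups again did not overlap, and the array that was lowest among the mutants for miR-183 was also the lowest for miR-96. The log2 difference was 0.83 (SE 0.109, limma adjusted p = 3.44e-05), with a 95% interval from 0.59 to 1.06.

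For miR-182, the p4 controls gave log2 signals of 6.62, 6.45, 6.57 and 6.65, and the p4 mutants gave 7.21, 7.11, 6.94 and 7.41. These groups did not overlap either, and the mutant arrays were more spread than the control arrays. The log2 difference was 0.60 (SE 0.0933, limma adjusted p = 0.000140), with a 95% interval from 0.40 to 0.80. Over all 281 miRNAs, 24.2% had p4 mutant arrays that all lay above all p4 control arrays. The call of miR-182 rested on the limit of 0.5, since its log2 difference was 0.42 after normexp background correction (limma adjusted p = 0.000130) and 0.34 as the mean of its probes (limma adjusted p = 0.000108).

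**Figure D1:**
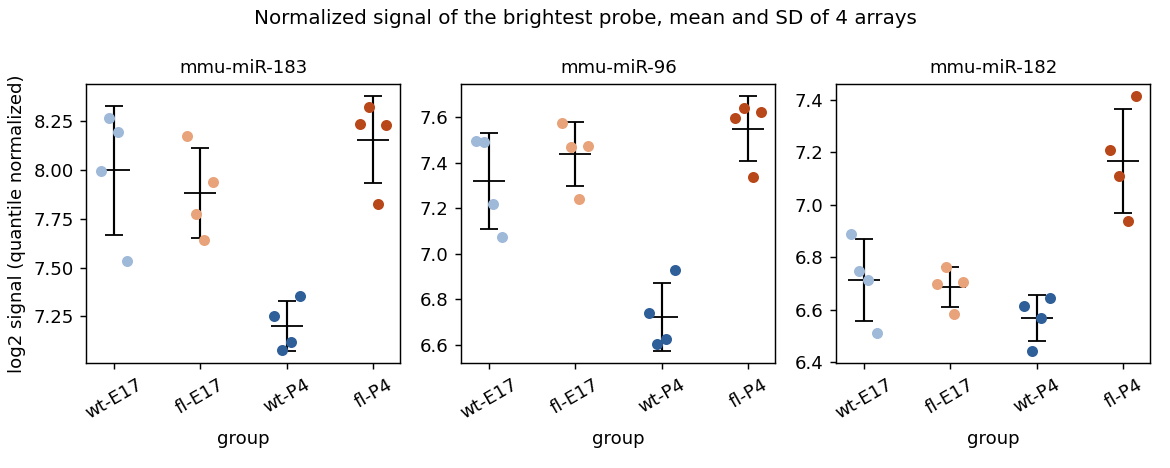
Quantile normalized log2 signal of the brightest probe of each member (vertical axes, each with its own range) in the 4 groups (horizontal axes). Points are arrays, and bars give the mean and SD of 4 arrays. The p4 control arrays of miR-183 lie between 7.08 and 7.36, below all arrays of the other groups, and the p4 mutant arrays of miR-182 lie between 6.94 and 7.41, above all others.

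The dimmer probes gave the same direction at p4. The log2 difference was 0.55 for the dimmer probe of miR-183 (limma adjusted p = 5.77e-05) and 0.55 for that of miR-96 (limma adjusted p = 9.93e-05), and both of these probes were called as well. The dimmer probe of miR-182, at background throughout, differed by 0.08 and was not called. Normalized signals still contain the background of the array. With background-subtracted signals scaled to the 75th percentile, the p4 differences were 1.54 for miR-183, 1.58 for miR-96 and 1.43 for miR-182, more than 1.5 times the normalized values, and the median of all probes moved by 0.28. Relative to that median, they were 1.25, 1.30 and 1.15.

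At E17, before myelination, no member was called. Over all 281 miRNAs, 6.05% were called in either direction at this age. For miR-183, the E17 controls gave log2 signals of 7.997, 8.27, 8.19 and 7.54 and the E17 mutants gave 8.18, 7.78, 7.64 and 7.94, so that the groups overlapped widely. The log2 difference was -0.11 (SE 0.158, limma adjusted p = 0.711), with a 95% interval from -0.45 to 0.23. For miR-96, the E17 controls gave 7.50, 7.49, 7.22 and 7.07 and the E17 mutants gave 7.57, 7.47, 7.24 and 7.47. Here too the ranges overlapped, and the log2 difference was 0.12 (SE 0.109, limma adjusted p = 0.533), with a 95% interval from -0.12 to 0.35. For miR-182, the E17 controls gave 6.89, 6.75, 6.71 and 6.51 and the E17 mutants gave 6.70, 6.76, 6.58 and 6.71. The mutant arrays lay within the range of the controls, with a log2 difference of -0.03 (SE 0.0933, limma adjusted p = 0.887) and a 95% interval from -0.23 to 0.17, and the sign turned without normalization between arrays and with 75th percentile scaling. A difference of the size seen at p4 lay outside these intervals for all 3 members.

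**Figure D2:**
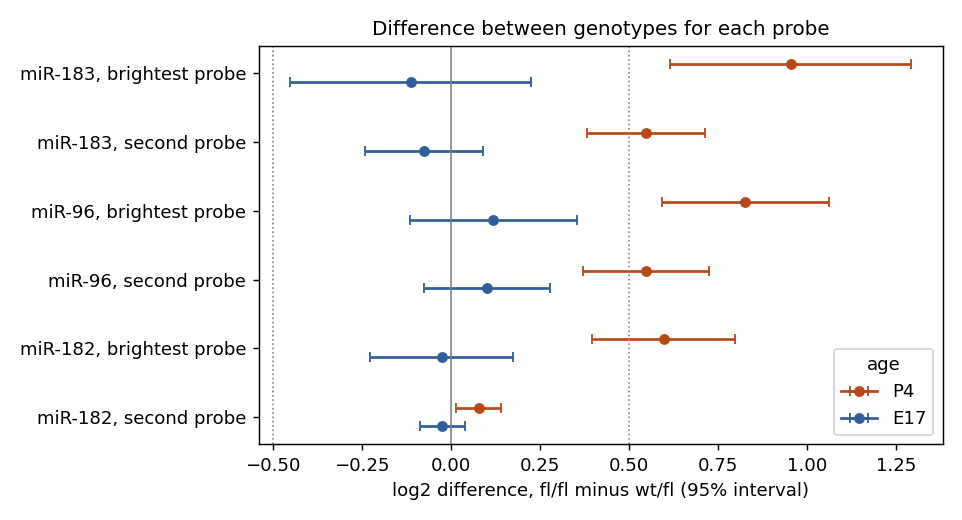
Log2 difference between Dicer fl/fl and Dicer wt/fl nerves (horizontal axis) for both probes of each member at p4 and at E17. Points are the estimates of limma, bars are 95% intervals, and dotted lines mark a difference of 0.5 in either direction. At p4 the 3 brightest probes lie at 0.95, 0.83 and 0.60, while every E17 interval contains 0.

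The change of the Dicer effect from E17 to p4 was tested directly in the same fit. The effect was larger at p4 by 1.07 on the log2 scale for miR-183 (SE 0.224, limma adjusted p = 0.00493), by 0.71 for miR-96 (SE 0.155, limma adjusted p = 0.00641) and by 0.62 for miR-182 (SE 0.132, limma adjusted p = 0.00518). All 3 members were called, whereas 2.85% of all miRNAs were called with a higher effect at p4. Of the dimmer probes, that of miR-183 was called (0.62, limma adjusted p = 0.00118). Those of miR-96 (0.45, limma adjusted p = 0.0197) and miR-182 (0.10, limma adjusted p = 0.118) were not. miR-182 was under the limit of 0.5 after normexp background correction (0.45) and as the mean of its probes (0.36). In these settings 2 and 3 of all 281 miRNAs were called higher. Without normalization between arrays, miR-183 alone remained called among the members, with values of 0.66, 0.28 and 0.17 against a median of -0.37 over all probes.

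With age, all 3 members had a negative log2 difference in controls, and miR-183 and miR-96 were called. In Dicer wt/fl Dhh-Cre+ nerves, the normalized signal of miR-183 was lower at p4 by 1.74-fold, with a log2 difference of -0.80 (SE 0.158, limma adjusted p = 0.00121). That of miR-96 was lower by 1.51-fold, with a log2 difference of -0.60 (SE 0.109, limma adjusted p = 0.000665). Both were called by their brightest probes, on which none of their p4 control arrays reached the E17 range. Their dimmer probes were not called, with -0.375 for miR-183 (limma adjusted p = 0.00155) and -0.385 for miR-96 (limma adjusted p = 0.00210). miR-182 was not called in controls, with overlapping arrays and a log2 difference of -0.15 (SE 0.0933, limma adjusted p = 0.240). With 75th percentile scaling, however, its difference was -0.64 (limma adjusted p = 0.000236), and with background-subtracted signals scaled in this way it was -0.66 (limma adjusted p = 0.00523), so that all 3 members were called lower in both settings. Of all 281 miRNAs, 180 were called lower in the first setting and 97 in the second. The median of all probes moved by -0.64 in the first setting and by -0.21 in the second. Whether the members differed from each other in their change with age was not tested. Among all 281 miRNAs, 12.1% were called lower from E17 to p4 in controls, and 19.9% had p4 arrays that all lay below the E17 arrays. These differences are relative to the other miRNAs of the nerve, and without normalization between arrays they turned to 0.070 for miR-183, 0.086 for miR-96 and 0.42 for miR-182, where the median of all probes was 0.42 higher at p4.

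In mutants, no member was called between E17 and p4, where 10.7% of all miRNAs were called in either direction. The log2 difference was 0.27 for miR-183 (limma adjusted p = 0.243) and 0.11 for miR-96 (limma adjusted p = 0.517), with overlapping arrays. The dimmer probe of miR-183 gave 0.25 (limma adjusted p = 0.0279), under the limit of 0.5, and that of miR-96 gave 0.06 (limma adjusted p = 0.646). The log2 difference of miR-182 was 0.48 (SE 0.0933, limma adjusted p = 0.00173), just under the limit, and all 4 p4 arrays lay above the E17 arrays. The share of all miRNAs without overlap was not counted for this comparison. Leaving out the second E17 mutant array or the third p4 mutant array brought miR-182 to 0.51 and 0.55, past the limit. Without normalization between arrays, 2 members were called higher at p4 in mutants, miR-183 with 0.73 (limma adjusted p = 0.000669) and miR-182 with 0.59 (limma adjusted p = 0.00756). In that setting, 57 of all 281 miRNAs were called higher. The comparisons with age in controls and between genotypes at p4 use the same p4 control arrays.

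For all 3 members the mean log2 signal was highest in p4 mutants and lowest in p4 controls, with the E17 groups between them. Only for miR-96 did the E17 mutants have a higher mean than the E17 controls. Mean log2 signals of miR-183 were 8.16 ± 0.22 (SD, n = 4) in p4 mutants, 7.998 ± 0.33 in E17 controls, 7.88 ± 0.23 in E17 mutants and 7.20 ± 0.13 in p4 controls, and those of miR-96 were 7.55 ± 0.14 in p4 mutants, 7.44 ± 0.14 in E17 mutants, 7.32 ± 0.21 in E17 controls and 6.72 ± 0.15 in p4 controls. For these 2 miRNAs the upper 3 groups differed from their neighbours by less than their spread, and the p4 controls stood below. For miR-182 the group that stood apart was the p4 mutants at 7.17 ± 0.20, and the E17 controls at 6.72 ± 0.16, the E17 mutants at 6.69 ± 0.08 and the p4 controls at 6.57 ± 0.09 were neighbours with overlapping arrays.

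The signal before normalization between arrays shows the members against a falling total. At p4, the summed signal of all miRNAs in mutants was 0.513 of that in controls (exact two-sided permutation p = 0.0286, the smallest that 4 against 4 arrays allow). The background-subtracted signal of miR-183 was 112, 115, 109 and 128 on the p4 control arrays and 190, 263, 138 and 217 on the p4 mutant arrays, in scanner units. Every mutant array was above every control array, a ratio of group means on the log2 scale of 1.70. For miR-96 the signals were 64.0, 65.0, 56.6 and 84.3 in p4 controls and 116, 149, 87.2 and 132 in p4 mutants, a ratio of 1.78. For miR-182 they were 34.4, 28.7, 33.0 and 33.4 in p4 controls and 52.2, 54.9, 41.0 and 72.6 in p4 mutants, a ratio of 1.67. No groups overlapped, and p was 0.0286 for each member (exact two-sided permutation test), or 0.0571 after adjustment over the 6 tests of 3 members at 2 ages, above the limit of 0.05, as is the smallest adjusted value here. How many of all miRNAs had no overlap in this signal was not counted.

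**Figure D3:**
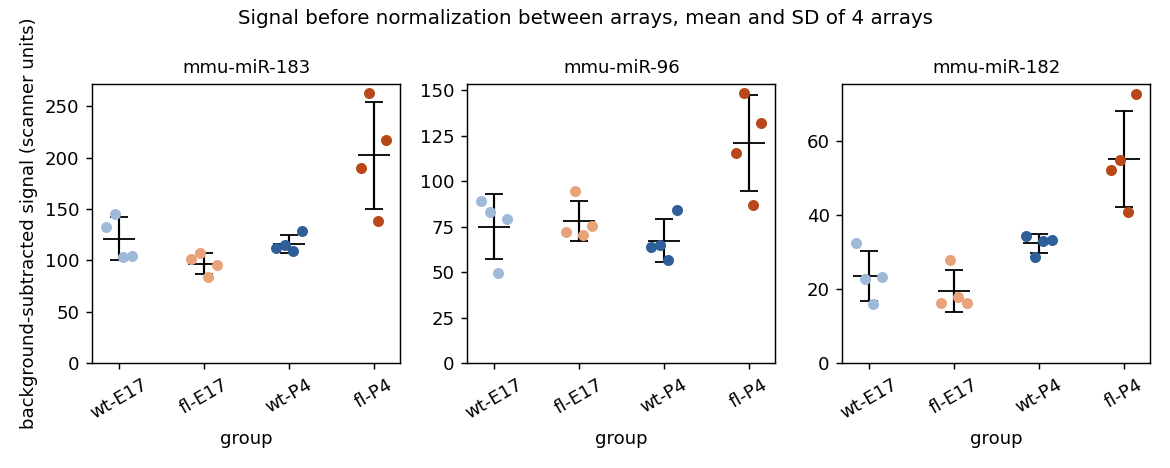
Background-subtracted signal of each member in scanner units, before normalization between arrays (vertical axes, from 0), in the 4 groups (horizontal axes). Points are arrays, and bars give the mean and SD of 4 arrays. The p4 mutant arrays of miR-183 lie between 138 and 263, and no p4 control array exceeds 128.

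Among the 167 miRNAs that were detected with a positive signal on every array, 50 had a higher mean signal in p4 mutants than in p4 controls before normalization, and the median log2 difference was -0.49. When these 167 were ordered by their log2 difference from the highest down, miR-96 took place 1, miR-183 place 2 and miR-182 place 4. After quantile normalization, the members took places 13, 7 and 28 among 281. When limma was run on log2 median signals without normalization between arrays, miR-183 was the only one of the 281 miRNAs called higher in p4 mutants, with a log2 difference of 0.54 (limma adjusted p = 0.00954), and 89 were called lower. In the same setting miR-96 reached 0.47 (limma adjusted p = 0.0265), under the limit of 0.5, and miR-182 reached 0.32 (limma adjusted p = 0.214).

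**Figure D4:**
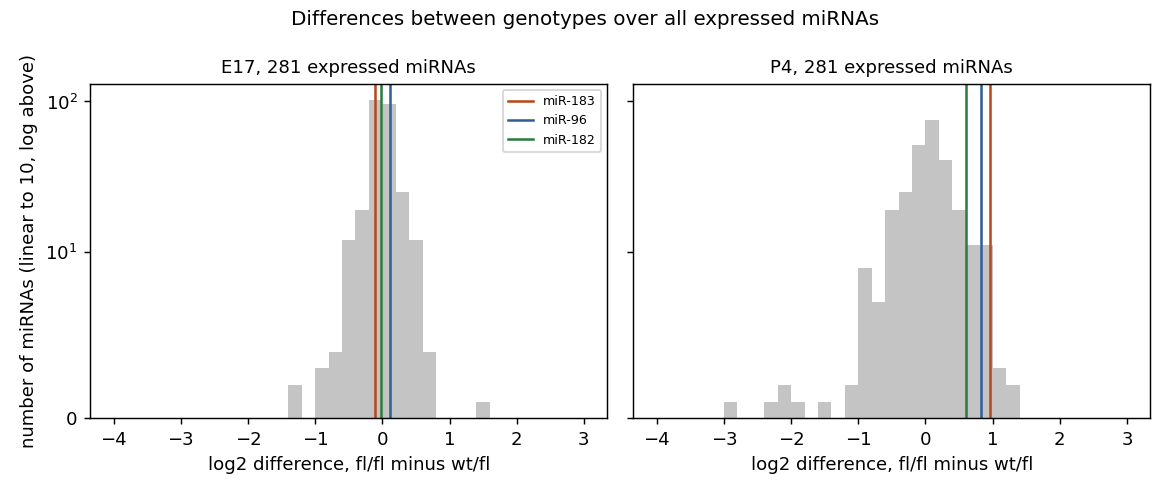
Number of expressed miRNAs (vertical axis, linear up to 10 and logarithmic above) by their log2 difference between Dicer fl/fl and Dicer wt/fl nerves after normalization (horizontal axis) at E17 and at p4. Coloured lines mark the members, which lie at -0.11, 0.12 and -0.03 at E17 and at 0.95, 0.83 and 0.60 at p4.

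At E17, the ratios of mutants to controls before normalization were 0.804 for miR-183 (exact two-sided permutation p = 0.114), 1.06 for miR-96 (exact permutation p = 0.800) and 0.835 for miR-182 (exact permutation p = 0.371), beside 0.887 for all miRNAs together. From E17 to p4, the summed signal of all miRNAs was 2.76-fold in controls, while the ratios were 0.966 for miR-183, 0.910 for miR-96 and 1.41 for miR-182. In mutants the summed signal was 1.60-fold, and the ratios were 2.04 for miR-183, 1.53 for miR-96 and 2.83 for miR-182. In controls, the median share of each member in the summed signal was lower at p4 than at E17. miR-183 made up a median of 0.271% of the summed signal in E17 controls, 0.0847% in p4 controls, 0.227% in E17 mutants and 0.296% in p4 mutants. The share of miR-96 was 0.151% and 0.0462% in E17 and p4 controls, and 0.185% and 0.178% in E17 and p4 mutants. The share of miR-182 was 0.0445% and 0.0258% in E17 and p4 controls, and 0.0416% and 0.0761% in E17 and p4 mutants. In p4 controls, every share of miR-183 (0.0745% to 0.104%) lay below every share in p4 mutants (0.243% to 0.314%). Shares of miRNAs other than the members were not compared.

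Over the 16 arrays, miR-183 and miR-96 followed each other most closely. Their normalized signals correlated with a Pearson r of 0.93, and among the 280 other expressed miRNAs each was the closest to the other. With group means removed, r was 0.81. miR-182 followed them less, with r = 0.70 for miR-183 and 0.71 for miR-96, or 0.61 and 0.76 with group means removed. The arrays share the normalization and fall into groups, and these values describe the arrays only.

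**Figure D5:**
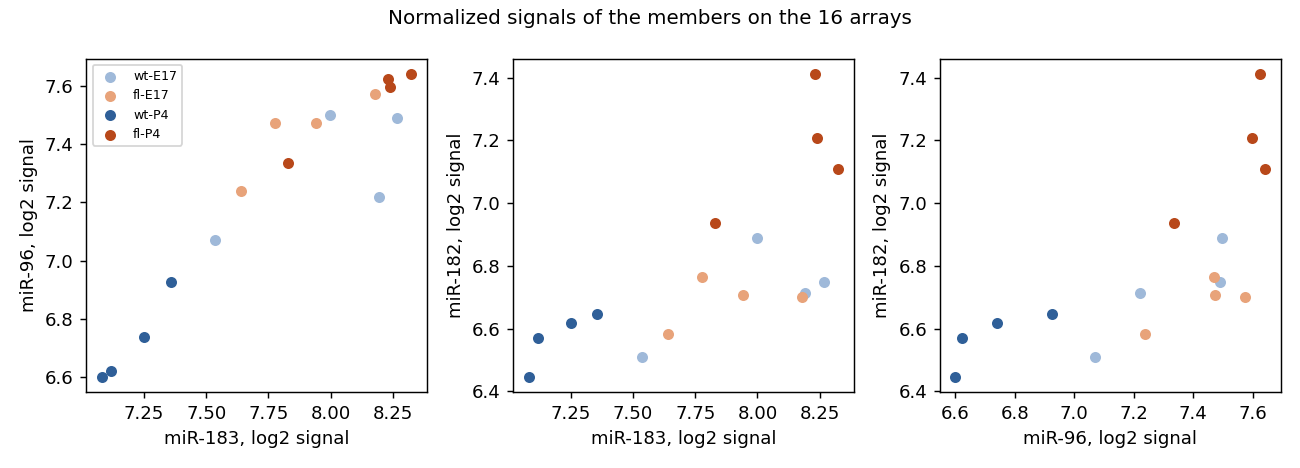
Normalized log2 signals of each pair of members plotted against each other, 1 point for each of the 16 arrays, coloured by group. The p4 control arrays sit at the low end of both axes in the pair of miR-183 and miR-96 (r = 0.93), and the p4 mutant arrays rise along the miR-182 axis in the other pairs (r = 0.70 and 0.71).

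After miR-96, the miRNAs whose pattern over the 16 arrays was most like that of miR-183 were miR-196a (r = 0.88), miR-487b (0.86), miR-323-3p (0.84) and miR-10b (0.83). For miR-96, after miR-183, they were miR-487b (0.86), miR-196a (0.85), miR-10b (0.84) and miR-675-3p (0.83). miR-196a and miR-10b are encoded in Hox gene clusters, miR-487b and miR-323-3p in the imprinted Dlk1-Dio3 region and miR-675 in H19. Of these, miR-196a with 0.75 (limma adjusted p = 0.000432) and miR-487b with 0.61 (limma adjusted p = 0.000439) were called higher in p4 mutants. For miR-182, the closest were miR-137 (r = 0.93), miR-124 (0.86), miR-382* (0.81), miR-551b (0.81) and miR-323-3p (0.81). miR-137 and miR-124 are enriched in neurons. None of these 5 was called at p4, with log2 differences of 0.32 for miR-137 and 0.31 for miR-124. The signal of miR-124 was dim, and it was detected on 3 E17 control, 2 E17 mutant, 3 p4 control and 4 p4 mutant arrays.

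Markers of other cells in or around the nerve were set beside the members at p4. Of the 7 miRNAs listed for surface epithelium, which can also express the cluster (the miR-200 family, miR-203 and miR-205), 0 were expressed, and their summed background-subtracted signal was at most 2.61 on any array. Of the 2 neuroendocrine miRNAs listed, miR-375 was not expressed either. The other, miR-7a, which is also on the neuronal list, was expressed and was not called at p4. All 6 neuronal miRNAs listed were expressed, of which 0 were called higher and 1 lower in p4 mutants (miR-9, which was detected on 0 of 4 p4 mutant arrays), with a median log2 difference of 0.13. Their summed signal was 252 to 287 in p4 controls and 129 to 206 in p4 mutants. This sum includes miR-9, which the study names among miRNAs that fell with myelination and were also reduced by loss of Dicer from Schwann cells. The sum was not normalized between arrays, and the total over all miRNAs was lower in p4 mutants as well. After normalization, the log2 differences were 0.31 for miR-124 (limma adjusted p = 0.00142) and 0.28 for miR-132 (limma adjusted p = 0.000314), both under the limit of 0.5. They were 0.17 for miR-218, 0.097 for miR-128 and -0.042 for miR-7a, none of which had an adjusted p of 0.05 or less. The part of axons in the result for the members was not tested.

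The other lists differed among themselves, and their counts stand beside the 10.3% of all miRNAs called higher at p4. Of 6 miRNAs listed for fibroblasts and smooth muscle, 5 were expressed and 4 were called higher in p4 mutants, all of them from the miR-199 and miR-214 genes, with a list median of 1.09. The same 4 were also called higher at E17, where no member was called. Their summed signal with the rest of the list was 5502 to 7541 in p4 controls and 5352 to 10016 in p4 mutants. miR-451 of 3 expressed erythroid miRNAs, miR-223 of 3 expressed leukocyte miRNAs and miR-126-3p of 2 endothelial miRNAs were called higher in p4 mutants, and 0 of 4 muscle miRNAs were called. The muscle miRNAs had log2 differences from 0.56 to 0.95, with a median of 0.70 and limma adjusted p from 0.118 to 0.256. The summed signals were 205 to 1746 and 453 to 1218 for the erythroid list in p4 controls and p4 mutants, 228 to 342 and 280 to 417 for the leukocyte list, 1138 to 2381 and 927 to 1512 for the endothelial list, and 259 to 572 and 198 to 988 for the muscle list. miR-338-3p, the expressed marker of myelinating glia, was lower in p4 mutants by 2.85 on the log2 scale, and the other marker of that list, miR-219, was not expressed. The part of these cell types in the result for miR-183, miR-96 and miR-182 was not tested.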

How the data were processed

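Total RNA of sciatic nerves (miRNeasy) was labelled with Cy3 and hybridized to Agilent miRNA arrays. Per array, the authors deposited intensity values of every spot and detection flags as Agilent Feature Extraction 10.5.1.1 wrote them, without scaling between arrays. A quantile normalized probe table came with them. The genome build behind the array design is not given in the sources used here.

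The log2 median spot signals were quantile normalized over 13000 non-control spots of 16 arrays and averaged over the 10 spots of each member probe, without the outlier spots (61 of 960 values of the members). Group means of all 16 arrays were fitted with limma 3.58.1 (lmFit, eBayes) in R 4.3.3 and p-values adjusted by Benjamini-Hochberg. The limits for a call were 0.05 for the adjusted p and 0.5 for the size of the log2 difference. The brightest probe represents a miRNA. Signal and transform follow the study's methods, whose t-test was run as an alternative. Only the limma fit and the rule for a call were tested on simulated data. Normalization, the removal of outlier spots, the averaging of spots and the filter on expression were not tested in this way.

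The gene signal of Feature Extraction, background-subtracted and summed over probes, was compared by exact permutation over 70 assignments of arrays. Negative values were set to 0 in sums. Named miRNAs besides the members are the 5 with the highest Pearson r to each member and those of 11 lists of cell type markers and related miRNAs. The members and lists were chosen with earlier results of these data known. The list of precursor partners held miR-182* and miR-96*, not on the array, and miR-183*, and that of shared seeds held miR-1271. Sequences are from RefSeq. Alternatives covered background correction, normalization, filter, outlier spots, the deposited table, test, groups in the fit, a replicate block, probe rule, limits and single arrays. Since the files hold no mean spot signal, normexp (offset 50) used the median signal. Replicates are separate mice.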

Additional observations from a re-analysis of the deposited data

Results flagged for a closer look

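The Dicer effect differed between the ages for all 3 members by a test of the difference itself, in which the effect at p4 exceeded that at E17 by 1.07 for miR-183, 0.71 for miR-96 and 0.62 for miR-182 on the log2 scale (adjusted p = 0.00493, 0.00641 and 0.00518 from limma).

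In 2 of 24 sets of 4 arrays, 1 array stood apart from the other three by Dixon's test, which chance alone does in a share of about 0.05 of sets. The normalized log2 signal of miR-96 was 7.34 on the third p4 mutant array, against 7.60 on the nearest array. The background-subtracted signal of miR-182 was 28.01 on the second E17 mutant array, against 17.81 on the nearest. Without the third p4 mutant array, the p4 difference of miR-96 was 0.90 and the members called at p4 were 3, as with it.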

How the results depend on the processing

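Leaving out each array in turn, the number of members called stayed at 3 at p4 (3 to 3), 0 at E17 (0 to 0), 2 with age in controls (2 to 2) and 3 for the difference of effects (3 to 3), and was 0 to 1 with age in mutants, where miR-182 passed the limit without the second E17 mutant array (0.51) or the third p4 mutant array (0.55). The p4 differences then ranged from 0.89 to 1.05 for miR-183, 0.77 to 0.90 for miR-96 and 0.52 to 0.67 for miR-182. The E17 difference of miR-182 turned to 0.031 without the first E17 control array and to 0.0085 without the third E17 mutant array, in a range from -0.095 to 0.031. Without normalization between arrays, 1 member was called at p4, 0 with age in controls, 2 with age in mutants and 1 for the difference of effects. Of all 281 miRNAs, 1 was called higher at p4, 57 higher with age in mutants and 2 higher for the difference of effects in this setting. There, the age differences in controls turned to 0.070 (miR-183), 0.086 (miR-96) and 0.42 (miR-182) and the E17 difference of miR-182 to 0.15. With 75th percentile scaling the latter was 0.16 and the age difference of miR-96 in mutants -0.047, while the median of all probes moved by 0.56 at p4, 0.26 at E17, -0.64 with age in controls and -0.39 with age in mutants. Without normalization this median moved by 0.25 at E17, 0.42 with age in controls and -0.37 for the difference of effects, and with background-subtracted signals by -0.21 with age in controls. With age in controls, 3 members were called with 75th percentile scaling and with background-subtracted signals, and 1 member was called after normexp and with the mean over all probes. Of all 281 miRNAs, 180, 97, 22 and 19 were called lower in these settings, in the order given. With age in mutants, 1 was called with background-subtracted signals, with outlier spots kept and in the deposited table, and 2 on adjusted p alone. Of all 281 miRNAs, 40, 13, 19 and 69 were called higher with age in mutants in these settings, in the order given. The causes were not tested.

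On background-subtracted signal before normalization, the log2 differences over fits without 1 array, an alternative added after seeing the data and run without a test, ranged at p4 from 0.63 to 0.94 (miR-183), 0.72 to 0.98 (miR-96) and 0.60 to 0.88 (miR-182), and at E17 from -0.39 to -0.22, -0.11 to 0.18 and -0.44 to -0.09. With log2 median signals, miR-182 differed by 0.32 at p4 (exact permutation p = 0.0857) and 0.15 at E17. The study's methods describe pairs of littermates of both genotypes at each age, but the labels do not tie replicate numbers to litters, and the main fit used no pairs. Deviations of arrays with the same number correlated from -0.52 to 0.46, with 1 of 8 arrays closest to its own number. In a paired fit with the replicate block within age, 3 members were called at p4, 0 at E17 and 3 for the difference of effects. No member's call changed in this fit. Of all 281 miRNAs, 28 were called higher and 30 lower at p4, and 9 higher and 10 lower at E17. For the difference of effects, 9 were called higher and 20 lower. Age comparisons could not be fitted with this block. Dim signals limit miR-182 most, since only 1 of its probes rose above background.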

Other observations

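The third p4 mutant array was the lowest of its group for all 3 members, with normalized log2 signals of 7.83 for miR-183, 7.34 for miR-96 and 6.94 for miR-182. Its summed signal of all miRNAs, 56841, was also the lowest of the group. The fourth p4 control array was the highest of its group for all 3 members, with 7.36, 6.93 and 6.65, and its summed signal of 122860 was the lowest of the p4 controls.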
